A study of Mus musculus with 8 samples.

Results

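The transcripts described here come from 10 genes that mark or drive the formative and primed states of pluripotency, *Otx2*, *Fgf5*, *Pou3f1*, *Dnmt3a*, *Dnmt3b*, *Lef1*, *Tcf7l1*, *Zic2*, *Utf1*, and *Foxd3*. They were picked by name, with no measured value used, as the rows of the count table whose Ensembl identifier pairs with 1 of these symbols, and all 10 were found among 52550 genes. The libraries come from mouse embryonic stem cells (ESCs) in which *Eif4a2* was knocked out (KO), so that every group, controls included, carries this KO. Cells labelled Eif4a2flag re-expressed Flag-tagged eIF4A2 in its full-length form (FL), and the control cells carried the empty vector (EV). For each, RNA was sequenced before immunoprecipitation (input) and after RNA immunoprecipitation with an anti-FLAG M2 antibody (RIP), which gave 4 groups of 2 libraries, namely input EV, input FL, RIP EV, and RIP FL. All cells were grown in ES-DMEM with 2i, that is 1.5 µM CHIR99021 and 0.5 µM PD0325901, and 10 ng/ml LIF. The rescue came from a stably inserted transgene, and the replicates of the rescue were separate clones. For EV no source says that the replicates were separate cultures, so a p-value may measure technical spread only. In the library labelled RIP FL replicate 2, 1 label field reads RIP Eif4a3, while its title and genotype name Eif4a2.

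ESCs in 2i are held in the naive state, in which MEK is inhibited and β-catenin is stabilized. On release from 2i they pass through a formative state, where OTX2 and POU3F1 redirect enhancers, FGF5 is secreted, and DNMT3A and DNMT3B methylate the genome, before the primed state is reached. TCF7L1 represses naive genes and is relieved by β-catenin, LEF1 is an activating partner of β-catenin, and UTF1, ZIC2, and FOXD3 are nuclear factors that act on chromatin and enhancers in pluripotent cells. eIF4A2 is an RNA helicase of the family that works with the cap-binding complex at the 5′ end of mRNAs. Comparing RIP FL with its input asks which of these mRNAs come down with tagged eIF4A2, and RIP EV shows what the antibody and beads retain when no tagged protein is present.

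The 5′ ends of *Dnmt3b* and *Utf1* are shown because, among the members with a test, these stood at opposite sides of the RIP FL over input FL change with groups that did not overlap. The windows are those of RefSeq on GRCm38.p6, both on the plus strand, with 250 bases before the annotated start in lower case and the 50 bases from the start on in capitals. Of the 10 genes, 8 had such a window. The windows are at chr2:153649199-153649498 for *Dnmt3b* and at chr7:139943606-139943905 for *Utf1*. The GENCODE annotation of GRCm38 starts *Dnmt3b* at 153649450, within its capitals. It starts *Utf1* at 139943789, within the lower-case stretch, so the *Utf1* capitals are not the 5′ end under that annotation.
Dnmt3b: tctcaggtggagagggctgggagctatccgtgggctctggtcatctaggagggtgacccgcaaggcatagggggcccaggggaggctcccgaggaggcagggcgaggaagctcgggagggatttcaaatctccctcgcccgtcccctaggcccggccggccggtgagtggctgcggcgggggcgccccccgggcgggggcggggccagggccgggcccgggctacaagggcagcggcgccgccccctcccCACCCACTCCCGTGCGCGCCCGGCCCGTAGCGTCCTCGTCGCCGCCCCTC
Utf1: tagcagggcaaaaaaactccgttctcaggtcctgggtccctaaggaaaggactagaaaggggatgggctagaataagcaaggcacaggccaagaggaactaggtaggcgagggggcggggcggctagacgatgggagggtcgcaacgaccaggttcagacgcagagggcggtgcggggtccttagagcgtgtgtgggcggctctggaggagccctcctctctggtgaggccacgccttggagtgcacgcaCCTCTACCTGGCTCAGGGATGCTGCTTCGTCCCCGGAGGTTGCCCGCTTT
G and C made up 80.0% of the 50 capital bases of *Dnmt3b* and 64.0% of those of *Utf1*, against a median of 56.0% over 32851 windows. The *Dnmt3b* value lay above 95.0% of these windows and the *Utf1* value above 68.7%. These shares describe the sequence, and their part in the changes below was not tested.

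Reads on genes ranged from 2044853 in RIP EV replicate 1 to 11206420 in RIP FL replicate 1. The RIP EV libraries stood apart from the other 6. Of 10754 expressed transcripts, those with at least 1 CPM (reads scaled to the library's total of gene reads) in all 4 inputs, 43.41% had 0 reads in RIP EV replicate 1 and 23.75% in replicate 2, against 0.307% and 0.521% in RIP FL. All 7 ESC markers examined were above 1 CPM in every input, with *Pou5f1* lowest at a mean of 12.6 CPM. The summed level of 5 primitive endoderm markers was at most 1.08 CPM, with *Sox17* and *Pdgfra* at 0, that of 3 mesoderm markers 2.61 to 22.5 CPM, that of 3 trophoblast markers at most 2.497 CPM, with *Krt7* at 0, that of 2 neural markers 5.14 to 8.01 CPM, and that of 4 fibroblast markers at most 6.87 CPM, with *Col1a2* and *Lum* at 0. *Eif4a2* itself gave 53.8 and 94.3 CPM in input EV and 86.8 and 69.1 CPM in input FL, so its 3′ tags do not tell the KO from the rescue. Whether these tags lie in the edited part of the gene or in the transgene is unknown.

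The 10 transcripts spanned a wide range of levels in the inputs, from *Tcf7l1* at the top to *Fgf5* and *Lef1*, which were barely detected. A QuantSeq library gives about 1 tag near the 3′ end of each transcript whatever its length, so CPM values are compared between genes without scaling by length. Whether tags were captured alike for each gene was not tested, so the order below is one of CPM. Over the 4 inputs *Tcf7l1* was highest, at 433 ± 75.6 CPM (mean ± SD, n = 4), followed by *Utf1* at 252 ± 37.6 CPM and *Dnmt3b* at 114 ± 34.6 CPM. The 4 libraries of *Tcf7l1* lay above all of *Utf1*, and those of *Utf1* above all of *Dnmt3b*. *Dnmt3a* followed at 72.6 ± 15.4 CPM, *Otx2* at 25.5 ± 19.1 CPM, *Foxd3* at 12.4 ± 7.43 CPM, *Pou3f1* at 8.04 ± 2.38 CPM, and *Zic2* at 2.92 ± 2.05 CPM. From *Dnmt3b* to *Zic2* each neighbor in this order overlapped the next in its range over the inputs. *Fgf5* and *Lef1* were at or near 0 in all 4 inputs and lay below every input library of *Zic2*. The abundance test needs 1 CPM in all inputs, which 7 members met, while *Fgf5*, *Lef1*, and *Zic2* did not.

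**Figure D1:**
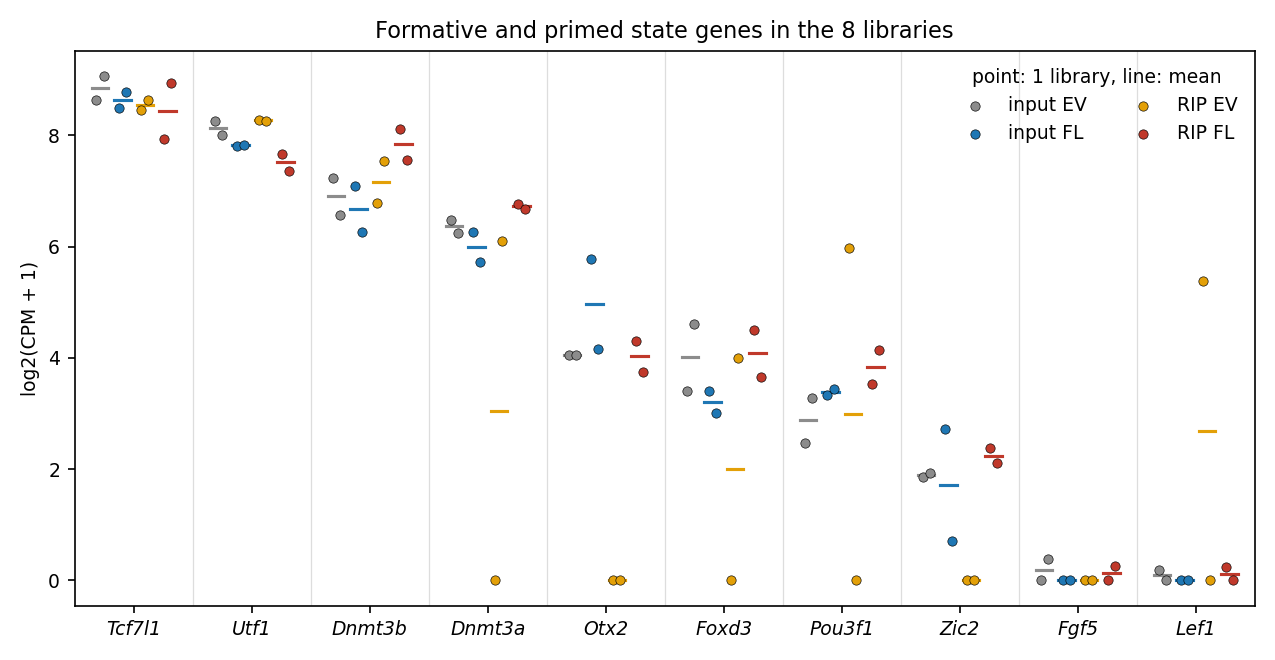
Levels of the 10 formative and primed state genes in each library, as log2(CPM + 1), in the order of their mean in the inputs. Points are single libraries (n = 2 per group) and lines are group means; the RIP EV points of *Otx2* and *Zic2* lie at 0, and *Dnmt3a*, *Foxd3*, *Pou3f1*, and *Lef1* have reads in 1 RIP EV library and none in the other.

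In the inputs, no member was called changed between FL and EV cells. In a whole culture, fewer cells in a given state and less RNA per cell cannot be told apart. *Otx2*, the homeobox factor that leads exit from the naive state, gave 15.5 and 15.6 CPM in input EV and 54.1 and 16.9 CPM in input FL. Both FL libraries were above both EV libraries, but only replicate 1 of FL stood clear of them. The fitted log2 fold change was 1.19 ± 0.51 (SE, adjusted p = 0.667, edgeR), and it was 0.08 without input FL replicate 1. *Pou3f1*, the POU factor that acts with OTX2, gave 4.54 and 8.74 CPM in EV and 9.09 and 9.80 CPM in FL. Its FL libraries were again above both EV libraries, with a log2 fold change of 0.55 ± 0.51 (SE, adjusted p = 0.84, edgeR).

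The forkhead factor gene *Foxd3* gave 9.63 and 23.4 CPM in input EV and 9.52 and 7.07 CPM in input FL, a log2 fold change of -0.95 ± 0.51 (SE, adjusted p = 0.719, edgeR). *Utf1*, which encodes a chromatin-bound factor of pluripotent cells, gave 304 and 255 CPM in EV and 223 and 226 CPM in FL, a log2 fold change of -0.33 ± 0.31 (SE, adjusted p = 0.846, edgeR). Both genes were lower in both FL libraries than in both EV libraries, although for *Foxd3* the gap between the nearest libraries was small. The de novo methyltransferase genes and *Tcf7l1* overlapped between EV and FL, with log2 fold changes of -0.37 for *Dnmt3a*, -0.22 for *Dnmt3b*, and -0.23 for *Tcf7l1*. For *Dnmt3b* the sign turned without input EV replicate 1, at 0.27, and without input FL replicate 2, at 0.17.

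Of the members with low counts, *Zic2* gave 2.61 and 2.81 CPM in input EV and 5.63 and 0.64 CPM in input FL, which is 19 and 9 reads against 26 and 4 reads. The FL libraries lay on either side of the EV libraries. *Fgf5*, the growth factor gene that marks the formative state, had 1 read in input EV replicate 2 and no reads in the other 3 inputs. *Lef1* had 1 read in input EV replicate 1 and no reads in the other 3 inputs. With 0 reads, the FL inputs together allow up to 0.277 CPM for either gene. That limit is 3 counts over both libraries and covers counting error only.

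Of the 7 members tested in the inputs, edgeR called 0 higher and 0 lower, and of all 10754 transcripts it called 0% higher and 0% lower. Before adjustment, a p under 0.05 was found for 1 member, *Otx2*, and 402 transcripts were higher and 394 lower. DESeq2 on the same 4 libraries called no member, and 12 transcripts higher and 5 lower. Both FL libraries lay above both EV libraries for 2 members and below for 2, against 19.8% and 17.3% of all tested transcripts. The median log2 fold change was -0.23 for the members and -0.01 for all transcripts.

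In the Flag immunoprecipitate compared with its own input, *Dnmt3b*, *Dnmt3a*, *Foxd3*, and *Pou3f1* stood above input and *Utf1* below it, each in both libraries. Over all tested transcripts, 45.8% lay above and 18.7% below, and none of the 7 members tested passed the threshold. *Dnmt3b* gave 135 and 76.0 CPM in input FL and 276 and 188 CPM in RIP FL. Both RIP FL libraries were above all 4 inputs, and the log2 fold change was 0.81 ± 0.35 (SE, adjusted p = 0.133, edgeR). Leaving out each library in turn gave 0.42 to 1.35, the latter without input FL replicate 1. *Dnmt3a* gave 75.5 and 51.6 CPM in input FL and 108 and 101 CPM in RIP FL. Its RIP FL libraries too were above all 4 inputs, with a log2 fold change of 0.41 ± 0.29 (SE, adjusted p = 0.361, edgeR). On CPM scaled with TMM factors, which correct a library for the few abundant transcripts that take up its reads, both genes were still above both FL inputs but below input EV replicate 1 in at least 1 RIP FL library.

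*Utf1* gave 223 and 226 CPM in input FL and 202 and 163 CPM in RIP FL. Both RIP FL libraries were lower than each of the other 6 libraries, of which the lowest was 223 CPM, and the same order held on TMM-scaled CPM (at most 173 against at least 238). The log2 fold change of *Utf1* was -0.61 ± 0.26 (SE, adjusted p = 0.135, edgeR), and it was -0.73 to -0.51 with each library left out. *Tcf7l1* gave 359 and 439 CPM in input FL and 243 and 493 CPM in RIP FL. Its RIP FL libraries lay on either side of the inputs, so that the log2 fold change of -0.41 ± 0.36 (SE, adjusted p = 0.454, edgeR) was 0.04 without RIP FL replicate 1.

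*Otx2* gave 54.1 and 16.9 CPM in input FL and 18.7 and 12.4 CPM in RIP FL, which is 250 and 105 reads against 210 and 124 reads. The groups overlapped, since RIP FL replicate 1 was above input FL replicate 2. The log2 fold change was -1.51 ± 0.51 (SE, adjusted p = 0.0664, edgeR), the largest in size among the 7, and it was -0.38 without input FL replicate 1. DESeq2 on the same 4 libraries called *Otx2* lower, with an adjusted p of 0.0177, in a fit that called 10.2% of all transcripts lower. With all 8 libraries in 1 edgeR model the adjusted p was 0.768.

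*Foxd3* gave 9.52 and 7.07 CPM in input FL and 21.8 and 11.6 CPM in RIP FL, a log2 fold change of 0.70 ± 0.42 (SE, adjusted p = 0.266, edgeR). *Pou3f1* gave 9.09 and 9.80 CPM in input FL and 10.6 and 16.5 CPM in RIP FL, a log2 fold change of 0.22 ± 0.39 (SE, adjusted p = 0.721, edgeR). For both genes the RIP FL libraries were above the inputs on CPM, but the groups overlapped on TMM-scaled CPM. *Zic2* gave 4.19 and 3.31 CPM in RIP FL, between the input FL libraries. *Fgf5* had 0 and 2 reads and *Lef1* 2 and 0 reads in RIP FL, so neither gave a level that can be compared.

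**Figure D2:**
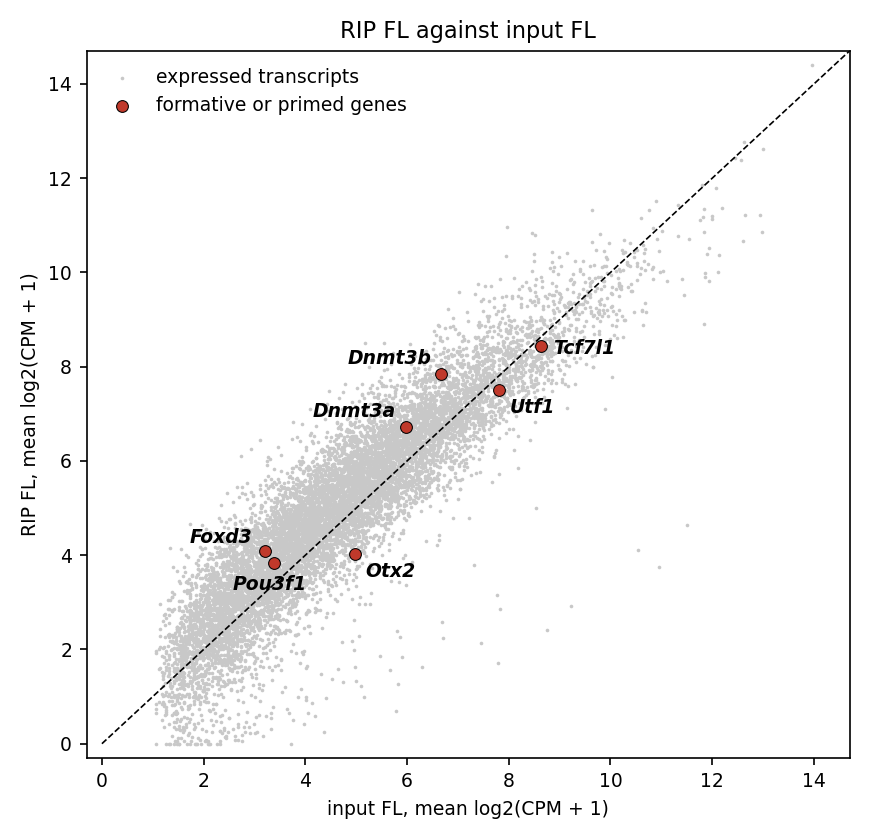
Mean log2(CPM + 1) of RIP FL against input FL for 10754 expressed transcripts (grey) and the 7 formative and primed state genes among them (red). The dashed line marks equal values; *Dnmt3b*, *Dnmt3a*, *Foxd3*, and *Pou3f1* lie above it and *Otx2*, *Utf1*, and *Tcf7l1* below.

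The 7 tested members thus gave 0 calls higher and 0 lower by edgeR, where 8.44% of all transcripts were called higher and 8.46% lower. Before adjustment, 3 had a p under 0.05, *Dnmt3b* higher and *Otx2* and *Utf1* lower. Both RIP FL libraries lay above both inputs for 4 of 7 members and below for 1, against 45.8% and 18.7% of all transcripts. On TMM-scaled CPM these shares were 31.7% and 29.9%, and 2 members, *Dnmt3a* and *Dnmt3b*, lay above and *Utf1* below. The median log2 fold change was 0.22 for the members and 0.02 for all transcripts. Scaling by library size alone moved these medians to 0.52 and 0.33, and under it 18.2% of transcripts were called higher, with *Dnmt3b* among them at a log2 fold change of 1.14 (adjusted p = 0.0345, edgeR).

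**Figure D3:**
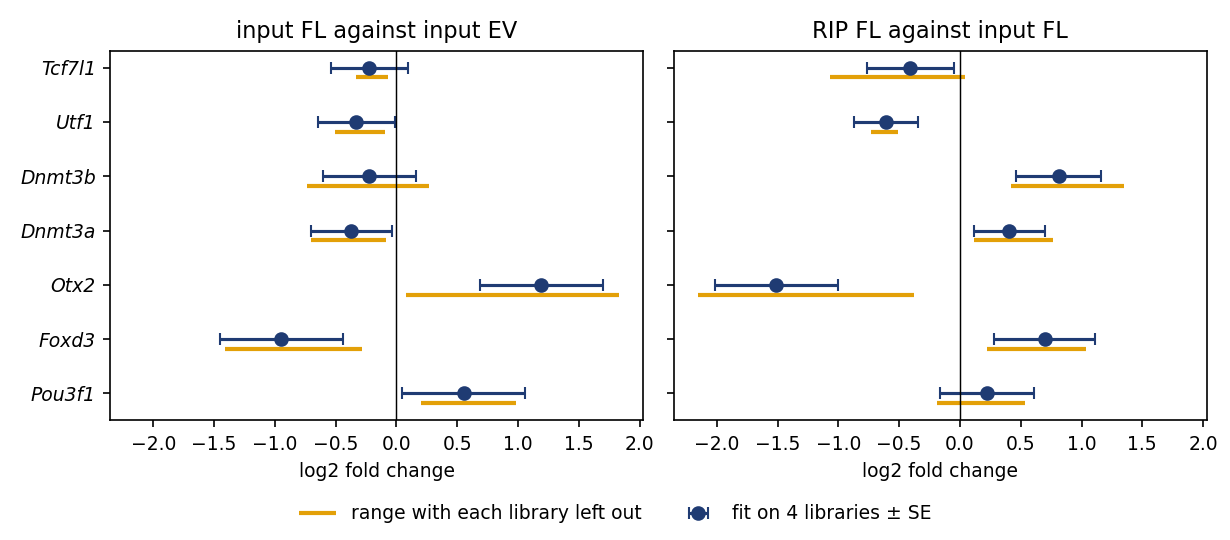
Fitted log2 fold changes of the 7 tested members for input FL against input EV (left) and RIP FL against input FL (right), with SE bars from edgeR on 4 libraries. The lower line spans the values with each library left out in turn; in RIP FL against input FL it crosses 0 for *Tcf7l1* and *Pou3f1*, and for *Otx2* it runs from -2.15 to -0.38.

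In the EV precipitate the members fell into those with reads in both libraries and those with reads in 1 or none. *Tcf7l1* gave 352 and 397 CPM, *Utf1* 309 and 305 CPM, and *Dnmt3b* 110 and 185 CPM, so the 3 most abundant members were recovered in both. *Dnmt3a* gave 0 reads in replicate 1 and 227 reads, or 67.9 CPM, in replicate 2, and *Foxd3* gave 0 and 50 reads, or 14.9 CPM. *Pou3f1* gave 126 reads, or 61.6 CPM, in replicate 1 and none in replicate 2, and *Lef1* 83 reads, or 40.6 CPM, in replicate 1 and none in replicate 2. Such gaps were common in these libraries and not particular to these genes. Of 4745 genes with at least 50 reads in RIP EV replicate 1, 12.1% had none in replicate 2, and of 6620 genes with at least 50 reads in replicate 2, 28.6% had none in replicate 1. In RIP FL, 5 of 9993 genes with at least 50 reads in replicate 1 had none in replicate 2.

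The value of *Pou3f1* in RIP EV replicate 1 was above each of its other 7 libraries, of which the highest was 16.5 CPM. The 83 reads of *Lef1* in the same library compare with 3 reads in the other 7 libraries together. Among 3367 transcripts within 2-fold of the input level of *Pou3f1*, 67.1% had no reads in RIP EV replicate 1, and 7.69% were as high as *Pou3f1* or higher there. *Tcf7l2*, a further partner of β-catenin, which was chosen after its values were seen, likewise gave 176 CPM in RIP EV replicate 1, 0 in replicate 2, and at most 17.5 CPM elsewhere. The part of low recovery or of amplification in these values was not tested.

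**Figure D4:**
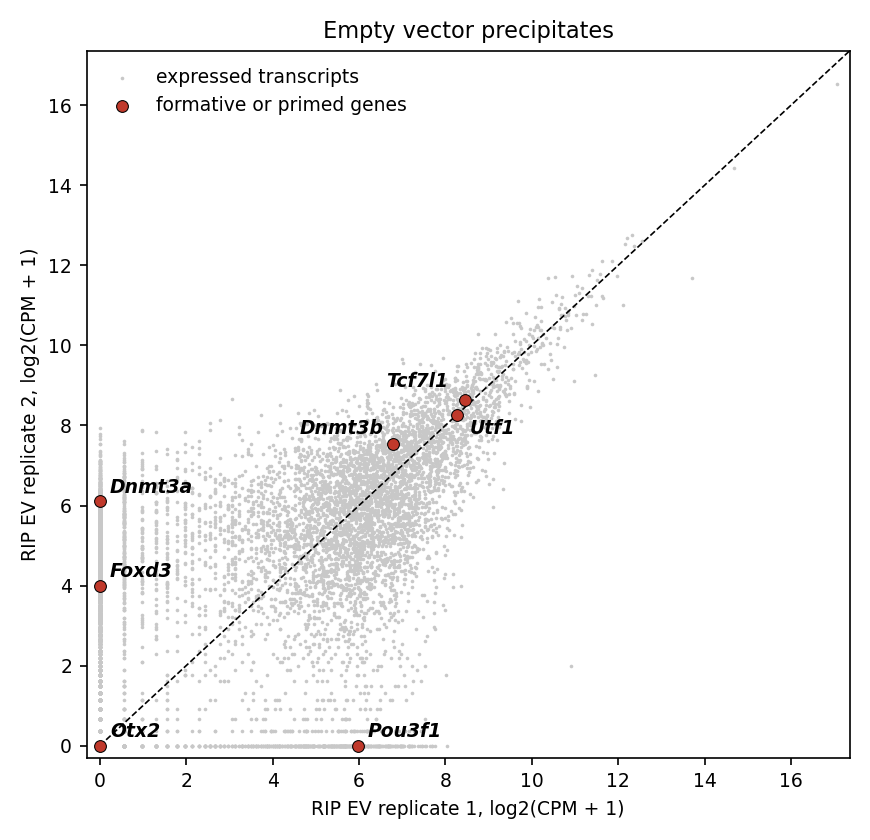
RIP EV replicate 2 against replicate 1, as log2(CPM + 1), for 10754 expressed transcripts (grey) and the 7 formative and primed state genes among them (red). *Tcf7l1*, *Utf1*, and *Dnmt3b* lie near the dashed line of equal values, *Dnmt3a* and *Foxd3* have no reads in replicate 1, *Pou3f1* has none in replicate 2, and *Otx2* has none in either.

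*Otx2* and *Zic2* were absent from the reads of both RIP EV libraries. By counting error, each library alone allows up to 1.47 CPM in replicate 1 and 0.897 CPM in replicate 2, and both together 0.557 CPM. These limits and the bounds below cover counting error only. Gaps in RIP EV could be wider, as for *Dnmt3a* with 0 reads in replicate 1 and 227 in replicate 2. Against the limit of both libraries, *Otx2*, with 334 reads in RIP FL, or 15.8 CPM over both libraries, was at least 28.3-fold higher in RIP FL than in RIP EV. The bound was 17.6-fold without RIP EV replicate 1 and 10.7-fold without replicate 2. *Zic2*, a zinc finger factor gene of the primed state, had 80 reads in RIP FL and was at least 6.79-fold higher, or 4.21-fold and 2.57-fold without these libraries in turn. *Otx2* was also at least 28.0-fold lower in RIP EV than in input EV (17.4-fold and 10.6-fold without RIP EV replicate 1 and 2), and *Zic2* at least 4.80-fold lower (2.98-fold and 1.82-fold). Of 3666 transcripts within 2-fold of the input level of *Otx2*, 8.78% had no reads in either RIP EV library. Of 3367 transcripts within 2-fold of the input level of *Pou3f1*, which is above that of *Zic2*, 31.9% had none in either. No such share was computed for *Zic2*. *Fgf5* had no reads in RIP EV and 2 reads in RIP FL, both under the limit of what 0 reads allow.

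*Utf1* was the member that stood lower in RIP FL than in RIP EV in both libraries, at 202 and 163 CPM against 309 and 305 CPM. Its log2 fold change was -0.98 ± 0.31 (SE, adjusted p = 0.127, edgeR on these 4 libraries). With all 8 libraries in the model the adjusted p was 0.0292, in a fit that called 24.8% of all transcripts higher and 5.46% lower, and *Otx2* was called higher there with an adjusted p of 0.00891. *Dnmt3b* gave 276 and 188 CPM in RIP FL against 110 and 185 CPM in RIP EV. Its libraries were separated by a small gap on CPM and overlapped on TMM-scaled CPM, with a log2 fold change of 0.41 ± 0.47 (SE, adjusted p = 0.69, edgeR). For *Tcf7l1* the groups overlapped and the log2 fold change was -0.25 ± 0.47 (SE, adjusted p = 0.835, edgeR).

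For the members with reads in only 1 RIP EV library the fitted change was set by which library was kept. The bounds given here cover counting error only. With 1 RIP EV library left in a fit, only the size of the change is given. *Dnmt3a* had a log2 fold change of 1.36 ± 2.28 (SE, adjusted p = 0.813, edgeR) in RIP FL over RIP EV, and 0.37 without RIP EV replicate 1. Without RIP EV replicate 2 its RIP EV level is 0, and it was at least 71.4-fold higher in RIP FL. *Foxd3* had 0.88 ± 2.23 (SE, adjusted p = 0.886, edgeR), and -0.10 without RIP EV replicate 1. Without replicate 2, where its RIP EV level is 0, it was at least 11.6-fold higher in RIP FL. *Pou3f1* had -1.38 ± 2.64 (SE, adjusted p = 0.838, edgeR), and -2.38 without RIP EV replicate 2. Without replicate 1 its RIP EV level is 0 and it was at least 14.9-fold higher in RIP FL. So *Dnmt3a* kept its sign but not its size, and *Foxd3* and *Pou3f1* kept neither.

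Of the 7 tested members, edgeR on 4 libraries called 0 in either direction for RIP FL against RIP EV, where it called 0% of all transcripts higher and 0% lower. Before adjustment, a p under 0.05 was found for *Otx2*, which was higher, and *Utf1*, which was lower, and over all transcripts for 2578 higher and 571 lower. DESeq2 on these 4 libraries called no member, and 833 transcripts higher and 533 lower. Both RIP FL libraries were above both RIP EV libraries for 3 members (*Otx2*, *Dnmt3a*, and *Dnmt3b*) and below for 1, against 51.9% and 12.1% of all transcripts, and on TMM-scaled CPM 46.7% lay above. The median log2 fold change was 0.41 for the members and 0.67 for all transcripts.

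For RIP EV against input EV, edgeR called 0 of 7 members in either direction, and 0% of all transcripts higher and 0% lower. *Otx2* alone had an unadjusted p under 0.05, where 460 transcripts were higher and 2715 lower. DESeq2 on the 4 libraries called no member, and 319 transcripts higher and 503 lower. With all 8 libraries edgeR called *Otx2* lower (adjusted p = 0.00925) together with 26.3% of all transcripts. Both RIP EV libraries were below both inputs for *Otx2*, *Dnmt3a*, and *Tcf7l1*, and above for *Utf1*, against 44.9% and 14.6% of all transcripts. On TMM-scaled CPM 14.5% lay above, and *Utf1* overlapped. The median log2 fold change was -0.34 for the members and -0.65 for all transcripts.

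The genes that work beside the members were read from 4 lists. By edgeR on 4 libraries, 3 of 6 DNA methylation partners rose in RIP FL over input FL and 0 fell, where 8.44% of all transcripts were called higher and 8.46% lower. The median log2 fold change of the list was 1.16 against 0.02 over all transcripts. In RIP EV over input EV the list median was 0.51 against -0.65 over all transcripts. In RIP FL over RIP EV it was 0.63 against 0.67. None of the 3 was called with all 8 libraries in 1 edgeR model, and DESeq2 on the 4 libraries called these 3 and *Tet1*, a further dioxygenase gene. That DESeq2 fit called 997 of 10754 transcripts higher and 1098 lower. *Dnmt1*, the maintenance methyltransferase, gave 95.4 and 91.4 CPM in input FL and 493 and 339 CPM in RIP FL, a log2 fold change of 1.84 ± 0.29 (SE, adjusted p = 0.00513, edgeR). Its RIP FL libraries were above all 6 others, of which RIP EV was 96.8 and 165 CPM. *Uhrf1*, which brings DNMT1 to hemimethylated DNA, had 1.29 ± 0.30 (SE, adjusted p = 0.0207, edgeR), and *Dnmt3l*, the inactive cofactor of the de novo enzymes and the most abundant of the list at 677 CPM in the inputs, had -0.44 ± 0.30 (SE, adjusted p = 0.323, edgeR). The third gene called was *Tet2*, a methylcytosine dioxygenase, at 1.03 (adjusted p = 0.0396, edgeR), named after its values were seen. *Dnmt3a* and *Dnmt3b*, at 0.41 and 0.81, had smaller values than these 3 and were not called by edgeR or by DESeq2 on the 4 libraries.

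Of 7 TCF and LEF partners, 2 rose in RIP FL over input FL by edgeR on 4 libraries and 0 fell, beside the 8.44% and 8.46% of all transcripts, with a median log2 fold change of 0.62. Both were called by DESeq2 on the 4 libraries too, and neither with all 8 libraries in 1 edgeR model. They were the corepressor gene *Tle1* and the Wnt target *Axin2*, at 1.27 and 1.52, both named after their values were seen. *Ctnnb1*, the gene of β-catenin, was the most abundant at 635 CPM in the inputs and had 0.25 ± 0.28 (SE, adjusted p = 0.571, edgeR). The corepressor genes *Tle4* and *Tle3*, next in abundance, had -0.09 and 0.62 and, like *Tcf7l2* at -1.08, were called by neither tool on 4 libraries.

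Of 14 other formative or primed genes 10 were tested, and by edgeR 0 rose and 1, *Fgf15*, fell, at -1.65 (adjusted p = 0.032, edgeR), with a median of -0.10 over the list. DESeq2 on the 4 libraries called *Fgf15* lower and *Grhl2* higher, in a fit that called 997 of 10754 transcripts higher and 1098 lower. Among the most abundant of them, the ETS factor gene *Etv4* and the TGF-β family ligand gene *Nodal* had -0.30 and 0.19 and were called by neither tool. Of 12 naive pluripotency genes, by edgeR 1 rose, *Zfp42* at 1.24 (adjusted p = 0.0383, edgeR), and 0 fell, with a median of -0.13. The 3 most abundant, *Tfcp2l1*, *Esrrb*, and *Klf2*, all factors of the naive network, had -0.87, -0.30, and -0.15 and were not called by edgeR, while DESeq2 on the 4 libraries called *Tfcp2l1* lower. For both lists the edgeR counts were near the shares of all transcripts called, 8.44% higher and 8.46% lower.

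In the other 3 comparisons edgeR on 4 libraries had no call on these lists, as it had none over all transcripts. DESeq2 on 4 libraries called *Esrrb*, *Klf2*, *Nr0b1*, *Tcl1*, *Sox3*, and *Tle3* higher in RIP FL than in RIP EV. It called *Sox3* and *Esrrb* lower in RIP EV than in input EV. Over all 10754 transcripts, these DESeq2 fits called 833 higher and 533 lower, and 319 higher and 503 lower, in that order. Of the 7 edgeR calls in RIP FL over input FL, all were also called by DESeq2 on the 4 libraries, 3 to 6 with a library left out, and 0 with all 8 libraries in 1 edgeR model. *Dnmt1* and *Uhrf1* were called with each library left out. The genes named only for a DESeq2 call were chosen after their values were seen.

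**Figure D5:**
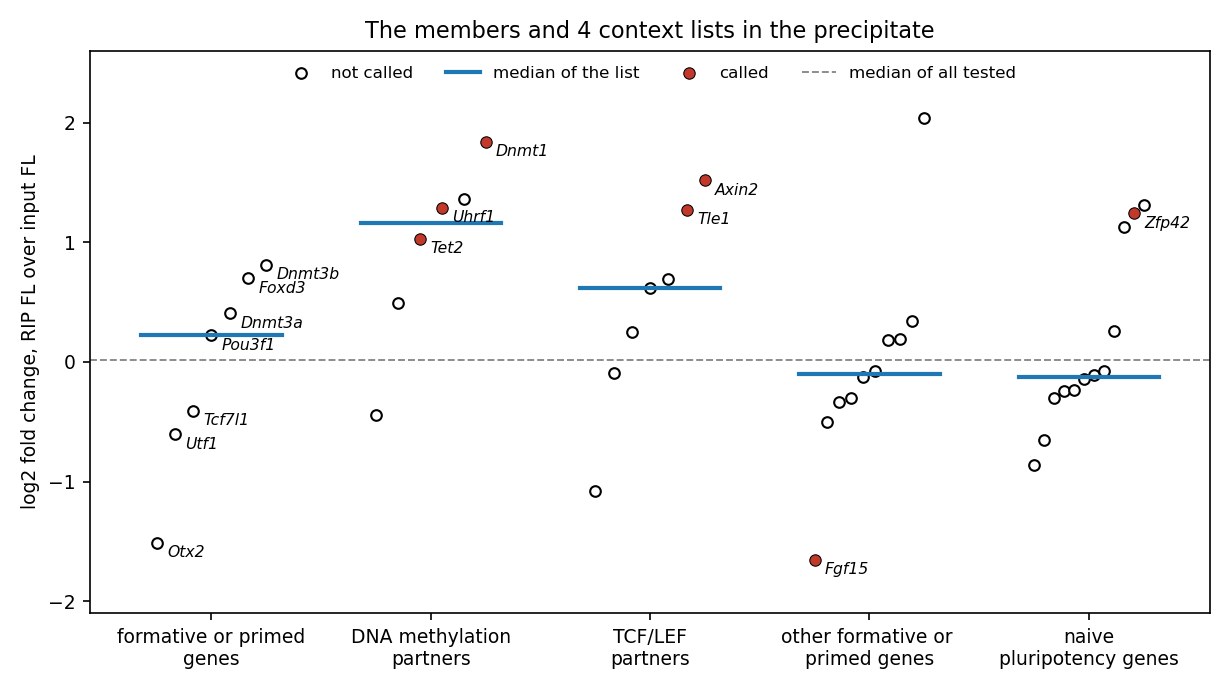
Log2 fold changes of RIP FL over input FL for the 7 tested members (left) and for 4 lists of related genes. Filled points passed an adjusted p of 0.05, blue lines are list medians, and the dashed line is the median of all 10754 tested transcripts; the DNA methylation partners have the highest list median, at 1.16.

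Over the 8 libraries, *Tcf7l1*, the member with the highest input level, was most like *Mrps25*, *Ing1*, and *Cbx3* in log2(CPM + 1), with Pearson r of 0.825, 0.822, and 0.794. These r values describe 8 libraries that differ in depth and in precipitation, and carry no test.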

How the data were processed

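RNA of 8 libraries was counted, 2 in each of 4 groups. Per the paper's methods and the submitters' processing notes, the authors trimmed QuantSeq 3′ reads, aligned them with STAR (version 2.5.3a) on mm10, and obtained gene counts with HTSeq (version 0.11.2). The deposited table holds raw, unnormalized counts. Neither the strand setting nor the release of the annotation is known here, so reads of overlapping genes on opposite strands cannot be told apart. The exons of *Dnmt3a*, *Lef1*, *Otx2*, *Pou3f1*, and *Tcf7l1* overlap an antisense gene, which had at most 10 reads in any library. *Otx2* and *Foxd3* also overlap a gene on their own strand.

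The 5 summary lines were left out of totals and tests. Of the 52550 identifiers, 52403 matched the GENCODE annotation of GRCm38. CPM was computed on gene reads. Libraries of 2044853 to 11206420 gene reads make 1 read worth 0.489 to 0.0892 CPM. Transcripts with at least 1 CPM in all 4 inputs were tested with edgeR (version 4.0.16, R version 4.3.3), with TMM factors and quasi-likelihood tests on the 4 libraries of each comparison, since the RIP EV libraries spread more than the others. Benjamini-Hochberg adjustment ran over all tested transcripts, with a threshold of 0.05. DESeq2 (version 1.42.0), fits on 8 libraries, other scalings and filters, the replicate number as a block, and leaving out each library were alternatives. The test was checked on simulated counts with 200 changed genes for the inputs and for RIP FL against input FL. The comparisons with RIP EV were not checked in this way. The simulated counts had the same spread for every gene, unlike the real libraries, so the check does not cover genes of unequal spread. Bounds use 3 counts as the highest level that 0 reads allow, which covers counting error only.

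Named were all 10 members, the 3 most abundant genes of each of 4 lists, the 3 transcripts most like the most abundant member, and genes said to be chosen after their values were seen. One gene that this rule names is not reported here. The members and lists were chosen with earlier results of these data known.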

Additional observations from a re-analysis of the deposited data

Results flagged for a closer look

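The RIP over input change of *Otx2* differed between FL and EV cells by 8.171 on the log2 scale (adjusted p = 0.0332, edgeR interaction term on all 8 libraries, where 21.3% of transcripts passed). The estimate rests on 0 reads in both RIP EV libraries, so its size depends on how the model treats zeros. Computed against 3 counts over both RIP EV libraries, a limit that covers counting error only, the difference was at least 13.5-fold. That bound was 8.36-fold and 5.11-fold without RIP EV replicate 1 and 2, 26.1-fold and 8.15-fold without input FL replicate 1 and 2, and 10.6-fold to 16-fold without any other library. The adjusted p was 0.01 and 0.0134 without either RIP EV library, and 0.0738 to 0.109 without 1 of the other 6 in turn, where the fitted difference was 7.558 to 9.344. Of these 6 fits, 5 called 0% of all transcripts and that without input EV replicate 2 called 12.8%. No other tested member passed, with adjusted p-values of 0.28 to 0.956. The comparison shares the RIP EV libraries in which 23.75% to 43.41% of expressed transcripts had no reads, and their part in it was not tested.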

How the results depend on the processing

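No member was called in the inputs under any alternative run. In RIP FL against input FL, 1 member was called higher with scaling by library size alone (*Dnmt3b*). That fit called 1960 of 10754 transcripts higher. In the same comparison, 1 was called lower with DESeq2 on 4 libraries and with no filter (*Otx2* in both). These fits called 1098 of 10754 and 1099 of 21314 transcripts lower. In RIP FL against RIP EV, 1 was called higher (*Otx2*) and 1 lower (*Utf1*) with edgeR and with DESeq2 on 8 libraries. Over all 10754 transcripts these fits called 2664 and 3270 higher, and 587 and 1128 lower. In RIP EV against input EV, 1 was called lower (*Otx2*) by the same fits on 8 libraries. They called 2828 and 3442 of all transcripts lower. Fits with a library left out rest on 1 library in a group, so their calls of members are not given for these comparisons. The causes were not tested.

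Signs turned for *Dnmt3b* in the inputs (-0.735 to 0.267 with a library left out, above 0 without input EV replicate 1 and, at 0.166, without input FL replicate 2) and in RIP EV against input EV (-0.210 to 0.637, below 0 without RIP EV replicate 2 and, at -0.190, without input EV replicate 2). In RIP FL against input FL they turned for *Pou3f1* (-0.188 to 0.538, below 0 without RIP FL replicate 2) and *Tcf7l1* (-1.068 to 0.038, above 0 without RIP FL replicate 1). In RIP FL against RIP EV they turned for *Pou3f1* (-2.383 to 9.771, above 0 without RIP EV replicate 1), *Foxd3* (-0.103 to 9.994, below 0 without RIP EV replicate 1), and *Tcf7l1* (-0.925 to 0.142, above 0 without RIP FL replicate 1). In RIP EV against input EV they turned for *Pou3f1* (-7.885 to 3.232, below 0 without RIP EV replicate 1) and *Utf1* (-0.012 with no filter, and -0.141 to 0.264 with a library left out, below 0 without input EV replicate 2).

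With the replicate number as a block no member was called in any comparison, and *Pou3f1* turned to 1.923 in RIP FL against RIP EV and to -1.049 in RIP EV against input EV. Libraries that share a number did not deviate together (correlations of -0.027 to 0.127), so these values gave no sign of pairing by number. With 2 libraries per group they cannot show that pairing is absent. The block moved calls over all transcripts from 0 to 39 higher and 22 lower in the inputs, from 908 to 749 and from 910 to 699 in RIP FL against input FL, from 0 to 210 and 171 in RIP FL against RIP EV, and from 0 to 154 and 272 in RIP EV against input EV.

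Over all transcripts in the inputs, where edgeR on 4 libraries called 0, DESeq2 called 12 higher and 5 lower on 4 libraries and 13 and 3 on 8, library size alone 1 and 2, no filter 38 and 17, and leaving out a library 0 to 32 and 0 to 53. In RIP FL against input FL, 908 higher and 910 lower became 0 and 6 with edgeR on 8 libraries, 274 and 430 with DESeq2 on 8, 1960 and 565 with library size alone, 1408 and 1099 with no filter, and 403 to 1314 and 455 to 1108 with a library left out. In RIP FL against RIP EV, 0 became 2664 and 587 with edgeR on 8, 833 and 533 with DESeq2 on 4, 3270 and 1128 with DESeq2 on 8, 5 and 24 with no filter, and 20 to 6349 and 49 to 2321 with a library left out. In RIP EV against input EV, 0 became 484 and 2828 with edgeR on 8, 319 and 503 with DESeq2 on 4, 1075 and 3442 with DESeq2 on 8, 2 and 1 with no filter, and 19 to 1814 and 22 to 6483 with a library left out. Where 1 library was left out, the lone library of its group was assumed to vary like the others.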
